A study of Mus musculus with 12 samples.

Results

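The apelin system of the mouse heart consists here of 3 genes: the receptor gene Aplnr and the genes of its ligands, Apln (apelin) and Apela (also called Elabela or Toddler). They were read by symbol from a table of 45664 rows, and all 3 passed the filter on low counts that left 20691 genes for testing. They were followed in bulk RNA of whole embryonic hearts, 1 library per embryo, in 4 groups of 3. The groups were wild type (WT) embryos and embryos with Ino80, the ATPase of a chromatin remodelling complex, disrupted in endothelium (KO), each at E13.5 and at E14.5 (E, embryonic day). The disruption used Tie2, which is also active in endocardium and in part of the blood lineage. The labels say nothing of the deleted part of Ino80, the strain, or what the WT littermates carried.

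Apelin receptor is a G protein-coupled receptor on endothelial cells, and in the embryonic heart it is known from the sinus venosus and from the coronary vessels that sprout from it. Apelin is made by endothelial tip cells, the leading cells of a growing vessel, and is induced by low oxygen. Apela acts on the same receptor earlier in development, and loss of either Apela or the receptor is known to disturb heart and coronary vessel formation. Both ligands are made as short precursors whose active peptide lies at the C-terminal end.

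In GENCODE M21 (build GRCm38) Apln lies at chrX:48025146-48034853 on the minus strand, with 3 exons of which 2 are coding. Apela lies at chr8:65028417-65037336 on the minus strand, with 3 or 4 exons by transcript and 2 coding exons in each. Aplnr lies at chr2:85136225-85139923 on the plus strand, and its main transcript is 1 exon. Aplnr and Ino80 share chromosome 2 but are 34.2 Mb apart. Of the 1004 exonic bases of Apela, 297 (29.6%) also belong to Gm45886, annotated as a processed transcript on the same strand. Gm45886 has no row under that symbol among the 45664 rows of counts. The rule by which reads in this shared stretch were assigned is unknown.

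The coding sequences of the ligands are shown because they set these precursors apart at a glance: Apln has 77 codons and Apela 54, and the receptor-binding end takes up the last 13 codons of Apln (apelin-13) and the last 11 of Apela. Both are from GENCODE M21 transcripts, 5′ to 3′ with the stop codon. Capitals mark the 39 and 33 bases that encode these C-terminal peptides.
Apln: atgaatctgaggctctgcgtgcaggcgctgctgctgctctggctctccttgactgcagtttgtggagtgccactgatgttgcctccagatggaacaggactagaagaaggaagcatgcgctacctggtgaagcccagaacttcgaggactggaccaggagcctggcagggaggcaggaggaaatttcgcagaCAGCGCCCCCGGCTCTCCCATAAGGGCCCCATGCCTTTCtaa
Apela: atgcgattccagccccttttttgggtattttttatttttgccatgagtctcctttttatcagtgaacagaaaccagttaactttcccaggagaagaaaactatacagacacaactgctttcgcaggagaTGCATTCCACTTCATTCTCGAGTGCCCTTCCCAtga

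Libraries held 46556032 to 182545647 counts, so that Aplnr rested on 831 to 6576 counts per library, Apln on 889 to 3995 and Apela on 88 to 1444. The thinnest value, Apela in E14.5 WT replicate 7.2, had an exact Poisson 95% interval of 1.15 to 1.76 CPM (counts scaled to library size), which covers counting error only. All 6 E13.5 embryos came from litter 1, so stage cannot be told apart from litter. At E14.5, litter 3 held WT replicate 7.2 and KO replicate 1, and litter 2 the others. KO replicate 5 at E13.5 and KO replicate 2 at E14.5 stood apart by low leukocyte genes, with 42.0 and 39.2 CPM summed over 10 genes, against 94.8 to 124 in WT hearts. Ino80 transcripts were at 30.7 to 36.6 CPM in E13.5 WT hearts and 29.6 in each E13.5 KO heart. At E14.5 the genotypes overlapped, at 30.8 to 33.9 CPM in WT and 27.0 to 31.9 in KO. Of all genes tested, 19.6% did not overlap between the genotypes at E13.5. These levels do not check the genotype, since only part of the heart's cells carry the disruption. Over 7 myocardial genes the hearts summed to 21745 to 29146 CPM, and over liver genes to at most 3.60 CPM.

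Aplnr was the member that separated the genotypes: its transcripts were lower in every KO heart than in any WT heart of the same stage. At E13.5, WT replicates 1, 4 and 2 had 35.5, 44.6 and 39.2 CPM, and KO replicates 3, 5 and 7 had 16.4, 16.4 and 20.3. At E14.5, WT replicates 8, 7 and 7.2 had 45.3, 60.9 and 58.0 CPM, and KO replicates 2, 4 and 1 had 20.9, 27.6 and 38.7. The groups did not overlap at either stage, a separation that 19.6% of all genes tested showed at E13.5 and 12.7% at E14.5. The KO heart nearest to WT was E14.5 KO replicate 1, from litter 3.

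Averaged over the stages, Aplnr fell in KO hearts by 1.04 ± 0.14 on the log2 scale (SE; 95% interval -1.35 to -0.73), 2.05-fold, with an adjusted p of 0.00639 in edgeR's quasi-likelihood test with Benjamini-Hochberg adjustment. It ranked 47 of 20691 genes by p in this comparison, in which 1.42% of genes were called (172 higher and 121 lower in KO). Within litters the WT mean was above the KO mean by 2.25-fold in litter 1, 2.19-fold in litter 2 and 1.50-fold in litter 3, where each genotype had 1 embryo. Leaving out the 2 KO hearts with few leukocyte transcripts gave -0.92 (adjusted p = 0.0200), and over all alternatives the adjusted p ran from 1.11e-12 to 0.0236. In bulk RNA, fewer receptor-bearing cells and less Aplnr RNA per cell cannot be told apart.

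**Figure D1:**
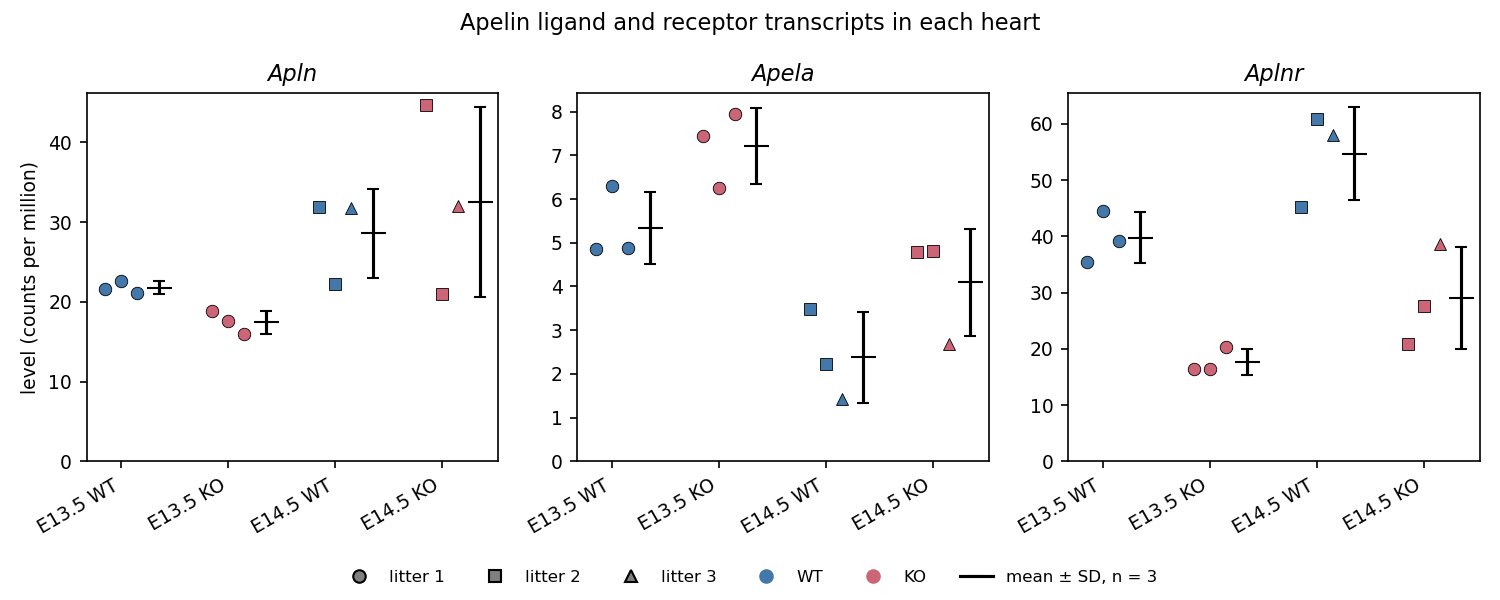
Levels of Apln, Apela and Aplnr (y axes, CPM, each from 0) in the 12 hearts by group. Points are embryos, shapes mark litters, colours genotypes, and bars the mean ± SD of 3 embryos; Aplnr KO hearts lie at 16.4 to 20.3 CPM at E13.5 and 20.9 to 38.7 at E14.5, below the WT hearts of their stage.

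Taken by stage, the Aplnr difference did not pass the threshold of 0.05. It was -1.16 ± 0.20 (log2, SE) at E13.5, with an edgeR adjusted p of 0.0698, where 0.106% of genes were called. At E14.5 it was -0.91 ± 0.20 with an edgeR adjusted p of 0.118, where 0.222% of genes were called. With litter as a block, both stages passed: -1.16 with an adjusted p of 0.0217 at E13.5 and -0.95 with 0.0410 at E14.5. At E13.5 the block adjusts nothing between embryos of 1 litter and acts only through the estimate of the spread. The block also moved the counts of called genes, from 22 to 60 at E13.5 and from 46 to 92 at E14.5. Over all alternatives the adjusted p of Aplnr ran from 2.84e-07 to 0.268 at E13.5 and from 0.000231 to 0.461 at E14.5. The change of the KO effect between the stages was 0.25 ± 0.28 (edgeR adjusted p = 0.997), so a difference between the stages was not shown. That interaction test called 0 of 20691 genes in edgeR (0%), with 746 at an unadjusted p under 0.05, and DESeq2 also called 0.

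Macrophage and leukocyte genes, markers of other cells that Tie2 can reach, were lower in some of the same hearts. Their summed level was 113 to 124 CPM in E13.5 WT and 42.0 to 80.6 in E13.5 KO, then 94.8 to 108 in E14.5 WT and 39.2 to 129 in E14.5 KO. None of the 10 genes was at 0 throughout a group. All 10 had averaged differences below 0, none was called by edgeR or DESeq2, and 1 had an edgeR unadjusted p under 0.05. Of all genes tested, 14.7% had such a p in this comparison, and DESeq2 called 4.52% of those it tested. At E13.5 alone, 4 of the 10 had an edgeR unadjusted p under 0.05, against 2137 of all 20691 genes. All 10 were below 0 there, with a median of -1.53 (log2). At E14.5 alone it was 0 of the 10, against 1985 of 20691, with 7 below 0, 3 above and a median of -0.12. In edgeR 0 of the 10 were called at either stage. E14.5 KO replicates 4 and 1, with leukocyte sums of 129 and 102 CPM, above or within the WT range of their stage, had Aplnr at 27.6 and 38.7 CPM, below the 45.3 to 60.9 of WT hearts. E14.5 KO replicate 2, with a leukocyte sum of 39.2 CPM, had the lowest Aplnr of that stage, 20.9 CPM. A link between leukocyte and Aplnr levels was not tested.

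Apln, the tip cell ligand, showed no difference between genotypes that passed the test. At E13.5, WT replicates 1, 4 and 2 had 21.6, 22.7 and 21.1 CPM, and KO replicates 3, 5 and 7 had 18.8, 17.6 and 15.9. At E14.5, WT replicates 8, 7 and 7.2 had 31.9, 22.2 and 31.8 CPM, and KO replicates 2, 4 and 1 had 44.7, 20.9 and 32.0. The E13.5 groups did not overlap, KO hearts being lower, a separation that 19.6% of all genes tested showed in 1 direction or the other. At E14.5 the KO hearts spread on both sides of the WT hearts.

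The Apln differences between KO and WT were -0.32 ± 0.23 (log2, SE; 95% interval -0.83 to 0.18) at E13.5 and 0.18 ± 0.23 (-0.32 to 0.69) at E14.5, with edgeR adjusted p of 0.651 and 0.901. Averaged, the difference was -0.07 ± 0.16 (-0.42 to 0.29; edgeR adjusted p = 0.879). The E14.5 value turned to -0.12 without KO replicate 2, the heart with the highest Apln, and the averaged value to 0.048 without KO replicate 4, the one with the lowest at that stage. The interaction was 0.50 ± 0.32 (edgeR adjusted p = 0.997). Apln is X-linked, and Y-linked genes summed to 190 to 235 CPM in 5 hearts and at most 0.235 in the other 7. The 5 were E13.5 WT replicate 2, KO replicates 3 and 7, E14.5 WT replicate 7.2 and KO replicate 4. With Y-linked expression as a covariate, Apln passed no test.

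Apela, the other ligand, was the member whose difference between stages passed the test. At E13.5, WT replicates 1, 4 and 2 had 4.86, 6.29 and 4.87 CPM, and KO replicates 3, 5 and 7 had 7.45, 6.26 and 7.93. At E14.5, WT replicates 8, 7 and 7.2 had 3.48, 2.22 and 1.43 CPM, and KO replicates 2, 4 and 1 had 4.79, 4.82 and 2.69. The genotypes overlapped at both stages, at E13.5 by 1 KO heart just under the highest WT heart and at E14.5 by the KO heart of litter 3. Within each litter the KO mean was the higher, 1.35 times the WT mean in litter 1, 1.68 times in litter 2 and 1.88 times in litter 3.

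The averaged KO minus WT difference of Apela was 0.62 ± 0.20 (log2, SE; 95% interval 0.18 to 1.05), with an edgeR adjusted p of 0.169. With litter as a block it was 0.62 with an adjusted p of 0.0271, and in DESeq2 0.61 with 0.0385; over all alternatives the adjusted p ran from 0.0271 to 0.429. By stage it was 0.44 ± 0.28 at E13.5 (edgeR adjusted p = 0.611) and 0.79 ± 0.29 at E14.5 (0.382). The interaction was 0.36 ± 0.40 (edgeR adjusted p = 0.997). The Apela call between genotypes thus differed between tests, while the averaged estimate was above 0 in each alternative run.

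**Figure D2:**
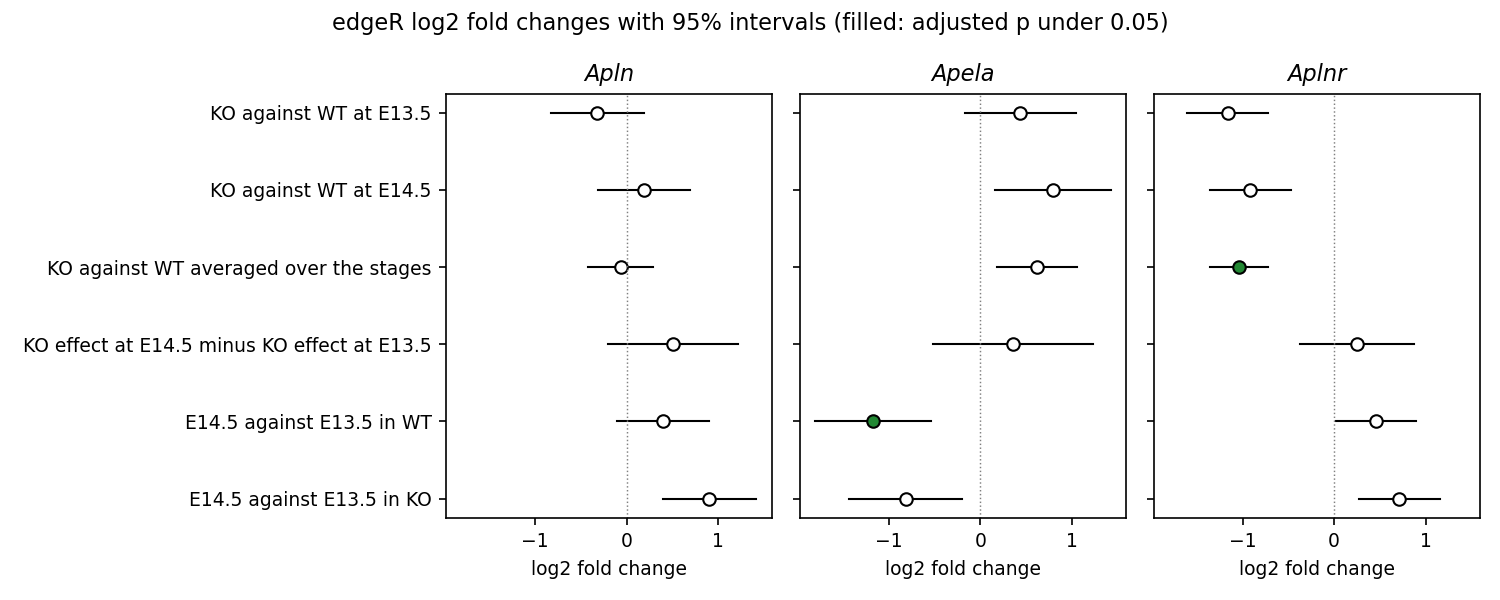
Log2 fold changes (x axes) of the 3 genes in the 6 comparisons (y axis), as edgeR estimates with 95% intervals over 12 hearts; filled points have an adjusted p under 0.05. The filled points are Aplnr in the averaged genotype comparison (-1.04) and Apela between stages in WT (-1.18).

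From E13.5 to E14.5 the estimates of the ligands had opposite signs. In WT hearts Apela fell by 1.18 ± 0.29 on the log2 scale (edgeR adjusted p = 0.0455), 2.26-fold, without overlap between the stages. Of all genes tested, 4.04% were called between the stages in WT hearts and 29.5% did not overlap. This call lay close to the threshold: it was kept in 4 of 12 fits that left out 1 heart, with edgeR adjusted p from 0.0221 to 0.177. The litter block cannot separate stage from litter: its term for litter 3 leaves litter 2 to stand for E14.5, and the value of that contrast with litter 1 was -0.93 (adjusted p = 0.0396). In KO hearts the Apela difference was -0.82 ± 0.28 (edgeR adjusted p = 0.126), without overlap, where 3.74% of genes were called and 24.9% did not overlap.

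Aplnr and Apln stood higher at E14.5 without passing the test. For Aplnr the stage difference was 0.46 ± 0.20 in WT (edgeR adjusted p = 0.197) and 0.71 ± 0.20 in KO (0.0759), with no overlap in either. For Apln it was 0.40 ± 0.23 in WT (edgeR adjusted p = 0.330), where WT replicate 7 reached down into the E13.5 range. In KO hearts it was 0.90 ± 0.23 (edgeR adjusted p = 0.0576), with no overlap. Between the stages, 29.5% of all genes tested did not overlap in WT hearts and 24.9% in KO hearts. Comparisons of genotype and of stage share groups, so these values are not independent of those above.

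Ordered by group mean ± SD, Aplnr ran from 54.7 ± 8.31 CPM in E14.5 WT through 39.7 ± 4.57 in E13.5 WT and 29.1 ± 9.02 in E14.5 KO to 17.7 ± 2.28 in E13.5 KO (n = 3 each). Neighbours overlapped in the middle of this order, where the E14.5 KO heart of litter 3 lay within the E13.5 WT range. Apln ran from 32.5 ± 11.9 CPM in E14.5 KO and 28.6 ± 5.58 in E14.5 WT to 21.8 ± 0.819 in E13.5 WT and 17.4 ± 1.45 in E13.5 KO, and only the last neighbours did not overlap. Apela ran from 7.22 ± 0.863 CPM in E13.5 KO and 5.34 ± 0.823 in E13.5 WT to 4.10 ± 1.22 in E14.5 KO and 2.38 ± 1.03 in E14.5 WT. Its first and last neighbours overlapped, while E13.5 WT and E14.5 KO were apart by the step from 4.86 to 4.82 CPM. For that pair, which differs in both stage and genotype, no share over all genes was computed. The shares of all genes apart were 19.6% between the E13.5 genotypes, 29.5% between stages in WT and 24.9% in KO.

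A further question was whether the members moved with endothelial transcripts as a whole. The 20 pan-endothelial genes summed to 1733 to 1850 CPM in E13.5 WT and 1680 to 1716 in E13.5 KO, then 1622 to 1847 in E14.5 WT and 1816 to 2097 in E14.5 KO. Against the mean log2 CPM of these genes, Aplnr lay at -1.01 to -0.65 in E13.5 WT and -2.01 to -1.71 in E13.5 KO. At E14.5 it lay at -0.58 to -0.16 in WT and -1.87 to -1.11 in KO. Pan-endothelial sums were lower in KO hearts at E13.5 and overlapped at E14.5, and relative Aplnr was below the WT range in KO hearts at both. The reference itself leaned upward in KO at E14.5, with 17 of the 20 genes above 0 and a median of 0.22 (log2). There edgeR called 0 of the 20, and 12 had an unadjusted p under 0.05, against 1985 of all 20691 genes. At E13.5 the median was -0.09.

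The averaged KO minus WT difference of this relative Aplnr level was -1.10 ± 0.15 (log2, SE), with p = 0.005 in a two-sided exact permutation test within stage. That is the smallest of its 400 arrangements, and 0.015 after adjustment over the 3 members. It was -1.09 at E13.5 and -1.12 at E14.5, each with p = 0.1 in the exact test, the smallest that 3 against 3 allow. The direction of Aplnr was the same against Cdh5 alone (-1.05), coronary endothelial genes (-0.64) and Pecam1 alone (-0.58). Pecam1 and 4 of the 11 coronary genes were themselves called lower in KO. The adjusted p was 0.015 with each reference.

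Relative Apela was higher in KO by 0.58 ± 0.26 (exact permutation p = 0.04, adjusted 0.06), and relative Apln differed by -0.14 ± 0.19 (p = 0.445). The Apln direction depended on the reference: it turned to 0.33 against coronary endothelial genes (adjusted p = 0.03, exact permutation) and 0.38 against Pecam1 alone (0.06). Apela passed against these references too, at 1.05 and 1.10 (exact permutation, adjusted p = 0.015 each). Apela is not restricted to endothelium, so its ratio to endothelial genes does not measure a level per endothelial cell.

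**Figure D3:**
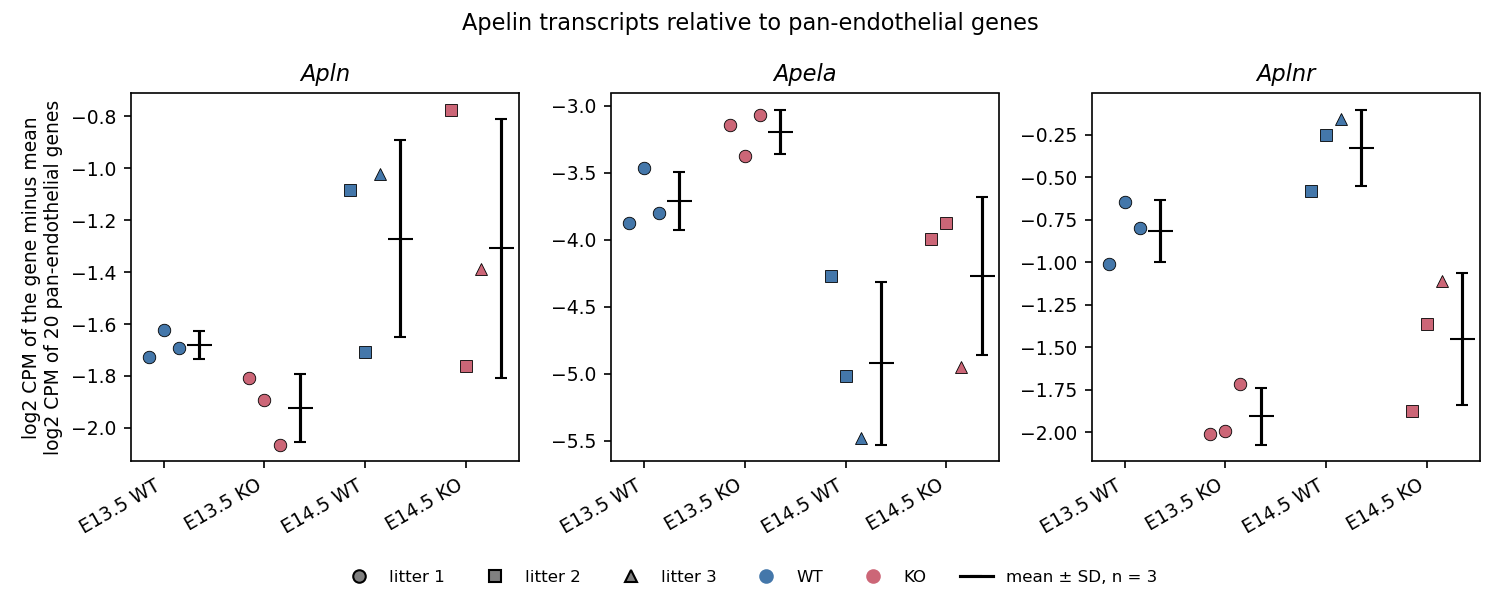
Log2 CPM of each gene minus the mean log2 CPM of 20 pan-endothelial genes (y axes) by group. Points are embryos, shapes litters, and bars the mean ± SD of 3; relative Aplnr in KO hearts lies between -2.01 and -1.11, and in WT hearts between -1.01 and -0.16.

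Per length, receptor and tip cell ligand stood in opposite order in the group means of the genotypes, though not in every KO heart. Per kilobase of exon, Aplnr stood at 10.7 CPM and Apln at 6.91 in E13.5 WT, against 4.78 and 5.54 in E13.5 KO. At E14.5 the levels per kilobase were 14.8 for Aplnr and 9.09 for Apln in WT, and 7.85 and 10.3 in KO. The ratio of Aplnr to Apln was 1.55 ± 0.139 (SD, n = 3) in E13.5 WT and 0.874 ± 0.186 in E13.5 KO. It was 1.70 ± 0.579 in E14.5 WT and 0.850 ± 0.395 in E14.5 KO. Among KO hearts at E13.5 the ratio was 0.740, 0.796 and 1.09 (replicates 3, 5 and 7), so replicate 7 kept the WT order. At E14.5 it was 0.397, 1.12 and 1.03 (replicates 2, 4 and 1), and only replicate 2 had Aplnr below Apln. The reversed E14.5 mean thus rested on that heart. The highest KO ratios, 1.09 and 1.12, lay below the lowest WT ratios, 1.40 and 1.21, at their stages. The ratio was not tested.

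Per kilobase, Apela stood at 5.32 CPM in E13.5 WT, 7.19 in E13.5 KO, 2.37 in E14.5 WT and 4.08 in E14.5 KO. The ratio of Apln to Apela was therefore 1.31 ± 0.145 and 0.780 ± 0.129 at E13.5 in WT and KO, and 4.40 ± 2.33 and 2.72 ± 1.23 at E14.5. Apela was thus the ligand with more RNA per length in E13.5 KO hearts only, and Apln in the other groups. These ratios carry the spread of both genes and, for Apela, the shared exonic stretch. If reads of that stretch went uncounted, Apela per kilobase is too low, and its order with Apln in E13.5 WT could differ.

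The genes that process, transmit or carry the signal did not show differences of the size seen for Aplnr. Of 7 tested genes for making and breaking down the peptides, edgeR and DESeq2 called 0 in the averaged genotype comparison, 0 had an unadjusted p under 0.05, and the median difference was 0.08 (log2). They include Furin, a convertase that cuts precursors (0.12 ± 0.06). Of 11 genes for receptor coupling, such as the arrestin Arrb2 (-0.17 ± 0.08), both tools called 0, with 2 at an unadjusted p under 0.05 and a median of -0.01. Of 9 downstream effectors, such as the transcription factor Mef2c (-0.02 ± 0.05), both called 0, with 3 at an unadjusted p under 0.05 and a median of -0.02. The median of all genes tested was -0.00, and the counts at an unadjusted p under 0.05 stand against the 14.7% of all genes given above. The share called among all genes was 1.42% in edgeR and 4.52% in DESeq2.

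Among 12 tested factors linked to expression of the apelin genes, 1 rose and 0 fell in edgeR, with a median of -0.02. In this comparison edgeR called 1.42% of all genes. The gene that rose was Tal1, a transcription factor of blood and endothelium (0.29 ± 0.06, edgeR adjusted p = 0.0433), and it kept its call in 2 of 12 fits that left out 1 heart. Hif1a, an oxygen-regulated transcription factor known to induce Apln, was at -0.03 ± 0.06, and Nr2f2, which sets venous identity, at 0.01 ± 0.05. Sox17, an arterial factor, was at -0.31 ± 0.14. For Hif1a, Nr2f2, Sox17, Furin, Arrb2 and Mef2c the edgeR adjusted p of the averaged difference was 0.330 or more. At E13.5 the 12 factors had a median of -0.10, with 9 below 0 and 3 above. At E14.5 it was 0.10, with 4 below 0 and 8 above. At each stage edgeR called 0 of them, against 0.106% and 0.222% of all genes. Nr2f2 stood at 33.6 to 38.3 CPM in E13.5 WT and 30.4 to 32.9 in E13.5 KO. At E14.5 it stood at 26.4 to 29.5 in WT and 31.7 to 32.8 in KO. Between genotypes, 19.6% of all genes tested did not overlap at E13.5 and 12.7% at E14.5.

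Among 18 tip cell genes, the company in which Apln is usually found, edgeR called 1 higher and 1 lower and DESeq2 3 higher and 1 lower, with a median of 0.11. The share called among all genes was 1.42% in edgeR and 4.52% in DESeq2. Plaur, the urokinase receptor, rose by 0.92 ± 0.15 (edgeR adjusted p = 0.0112), and Cxcr4, a chemokine receptor, fell by 0.84 ± 0.18 (0.0488). Cxcr4 kept its call in 2 of 12 fits without 1 heart. The tip cell genes Esm1 and Angpt2 were at 0.45 ± 0.21 and 0.49 ± 0.27, and Dll4 and Kdr at -0.03 ± 0.08 and 0.13 ± 0.07, none of them called by edgeR. At E13.5 Dll4 lay at 16.9 to 18.6 CPM in KO and 19.5 to 22.8 in WT, where 19.6% of all genes did not overlap. At E14.5 the Dll4 groups overlapped, with means of 24.5 CPM in KO and 21.2 in WT.

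Among 9 venous and sinus venosus genes, the origin of many Aplnr-bearing vessels, edgeR called 0, with 3 at an unadjusted p under 0.05 and a median of 0.04. Over all genes tested, edgeR called 1.42%, and 14.7% had an unadjusted p under 0.05. DESeq2, which called 4.52% of all genes it tested, called 2 of these 9 higher and 1 lower. Ephb4, the venous ephrin receptor, was at 0.09 ± 0.06, and Tek, the angiopoietin receptor, at 0.04 ± 0.07.

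Coronary endothelial genes had a median of -0.31 over 11 genes, of which edgeR called 4 lower and 1 higher and DESeq2 5 lower and 1 higher. The share called among all genes was 1.42% in edgeR and 4.52% in DESeq2. The leukocyte list above had a median of -0.81 over 10 genes with 0 called by either tool. Rgcc fell by 1.10 ± 0.14 (edgeR adjusted p = 0.00252), close to the size of the Aplnr change, and the tight junction gene Cldn5 fell by 0.85 ± 0.12 (0.00602). Gpihbp1, the capillary anchor of lipoprotein lipase, fell by 0.82 ± 0.18 (0.0429), a call kept in 3 of 12 fits without 1 heart. Cxcr4, also on this list, was the fourth. Fabp5, a fatty acid binding protein, rose by 0.53 ± 0.07 (0.00314).

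Of the 20 pan-endothelial genes, Pecam1 fell by 0.47 ± 0.05 (edgeR adjusted p = 0.000785) and Eng rose by 0.30 ± 0.06 (0.0193). The call of Eng was kept in 8 of 12 fits without 1 heart, and DESeq2 called 3 higher and 2 lower. The median was 0.07, and Cdh5, the endothelial cadherin, was at -0.01 ± 0.06. At E13.5 Cdh5 lay at 224 to 243 CPM in KO and 249 to 263 in WT, where 19.6% of all genes did not overlap. At E14.5 the Cdh5 groups overlapped, with means of 276 CPM in KO and 254 in WT. Of 10 endocardial genes, Wnt9b rose by 1.27 ± 0.17 (edgeR adjusted p = 0.00357) and Cytl1 fell by 1.79 ± 0.27 (0.00873), with a median of 0.20, while DESeq2 called 3 higher and 1 lower. Among all genes, edgeR called 1.42% and DESeq2 4.52% in this averaged comparison. By stage, edgeR called Pecam1 (-0.62 ± 0.08) and Wnt9b (1.63) at E13.5, and Plaur (1.28), Fabp5 (0.72) and Rgcc (-1.07) at E14.5.

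**Figure D4:**
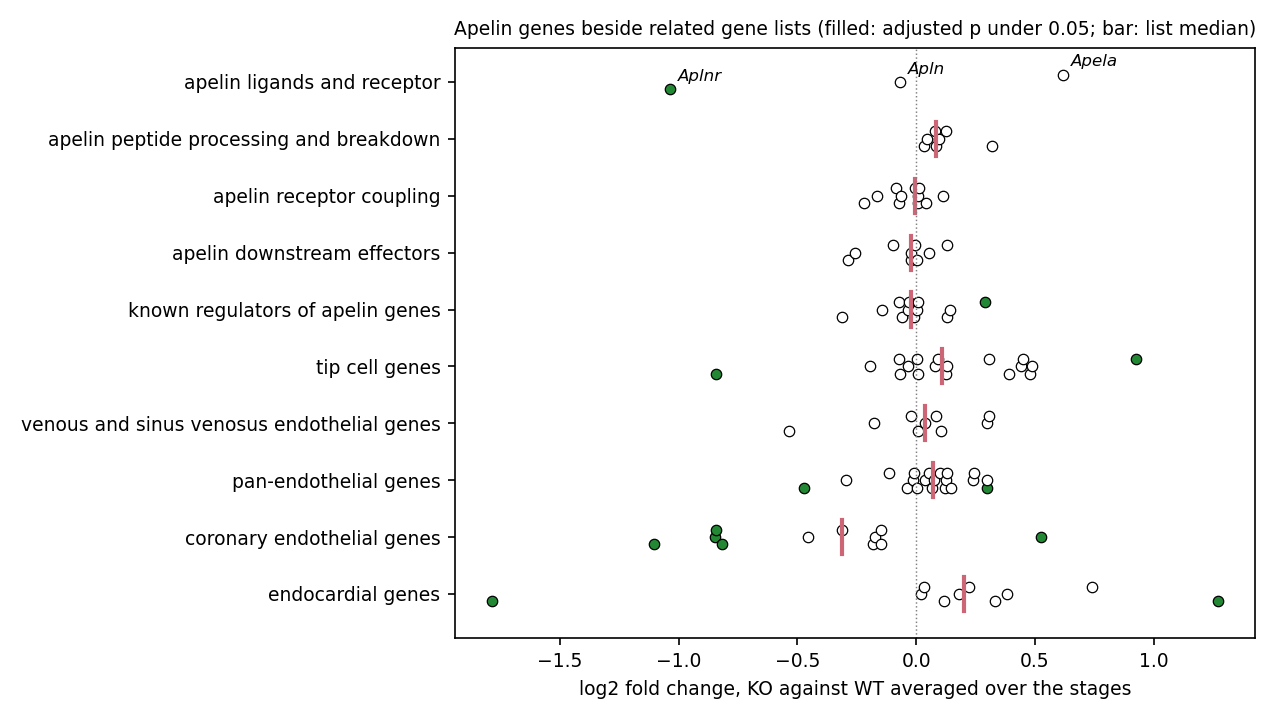
Log2 fold changes between KO and WT averaged over the stages (x axis) for the 3 apelin genes and the tested genes of 9 related lists (y axis). Points are genes, filled where the edgeR adjusted p is under 0.05, and bars are list medians; Aplnr at -1.04 lies below all tested genes of the 4 apelin pathway lists.

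Between the stages, edgeR called some genes of the peptide processing and receptor coupling lists. DESeq2 called 10.9% of all genes it tested between the stages in WT and 9.14% in KO, against 4.04% and 3.74% in edgeR. In WT hearts edgeR called 2 of the 7 tested processing genes lower and DESeq2 3, with 0 higher in both: Furin fell by 0.36 ± 0.08 and Mme, a peptidase that cleaves apelin, by 0.93 ± 0.23 (edgeR adjusted p = 0.0358 and 0.0491). Agtr1a, the angiotensin receptor related to Aplnr, rose by 0.77 ± 0.14 in WT and 0.59 ± 0.14 in KO (edgeR adjusted p = 0.0220 and 0.0373). Rgs5, a pericyte regulator of G protein signals, rose 5.65-fold in WT and 5.27-fold in KO (0.0150 and 0.00917). These were the 2 of 11 coupling genes that edgeR called in each genotype. It called none of the G protein, arrestin or receptor kinase genes on that list. DESeq2 called 2 higher and 1 lower in WT and 2 higher and 0 lower in KO. In KO hearts the convertase gene Pcsk5 was the 1 processing gene edgeR called (-0.62 ± 0.13, edgeR adjusted p = 0.0270). Of the 12 factors linked to the apelin genes, Tal1 (-0.46 ± 0.09) and Nr2f2 (-0.39 ± 0.07) fell in WT. In KO hearts Tal1 fell (-0.50 ± 0.09), and Epas1, a low-oxygen factor, and the Notch ligand Dll4 rose (0.43 ± 0.10 and 0.48 ± 0.11). Of the 11 coronary genes, edgeR called 6 higher and 0 lower in each genotype, and DESeq2 6 higher in WT and 7 in KO with 0 lower.

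The genes whose levels were most like each member over the 12 hearts were found by the Pearson correlation of log2 CPM among 12697 named genes. The points share stage, genotype and library, so r is a description, and it is given also within groups, after removal of group means. Nearest to Aplnr were the junctional molecule Jam2 (r = 0.98, 0.89 within groups), Mcf2l (0.97, 0.84), Lurap1l (0.97, 0.73), Pik3r6 (0.97, 0.89) and Fmnl1 (0.97, 0.78). Jam2 stood at 10.3 to 10.7 CPM in E13.5 WT and 5.13 to 6.65 in E13.5 KO, then 13.1 to 19.1 in E14.5 WT and 6.31 to 10.8 in E14.5 KO. All 5 were called lower in KO in the averaged comparison, from -0.98 (Lurap1l) to -0.56 (Mcf2l), which their likeness to Aplnr makes no independent result.

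Nearest to Apln were the homeobox gene Meox2 (r = 0.94, 0.88 within groups), Chn1 (0.94, 0.86), Snx20 (0.91, 0.76), Heca (0.90, 0.73) and Sparcl1 (0.89, 0.79). Meox2 shared the wide spread of Apln in E14.5 KO, from 7.64 to 19.6 CPM, against 4.25 to 4.74 in E13.5 KO. None of the 5 was called between the genotypes, and their averaged differences lay between -0.10 and -0.00.

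Nearest to Apela was Hbb-y, a globin of embryonic red cells (r = 0.98, 0.93 within groups), and also near were Hsd3b6 (0.97, 0.92), the embryonic globin Hba-x (0.96, 0.81) and the endothelial gene Plvap (0.95, 0.79). Hbb-y stood at 810 to 1205 CPM in E13.5 WT, 1866 to 2380 in E13.5 KO, 43.1 to 314 in E14.5 WT and 155 to 876 in E14.5 KO. Hbb-y and Hba-x were not called between the genotypes (averaged 1.35 and 1.53, edgeR adjusted p = 0.296 and 0.164).

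Without the 2 hearts farthest from the median of Hbb-y, r with Apela was 0.95. The 8 genes of the erythroid list, which holds adult globins and no embryonic ones, summed to 6016 to 10809 CPM in E13.5 WT, 3568 to 7371 in E13.5 KO, 11444 to 18366 in E14.5 WT and 3911 to 41771 in E14.5 KO. The part of embryonic blood in the Apela values was not tested. Between the members themselves, r was -0.77 for Apela with Aplnr (-0.53 within groups), -0.55 for Apln with Apela (-0.02) and 0.34 for Apln with Aplnr (-0.43).

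**Figure D5:**
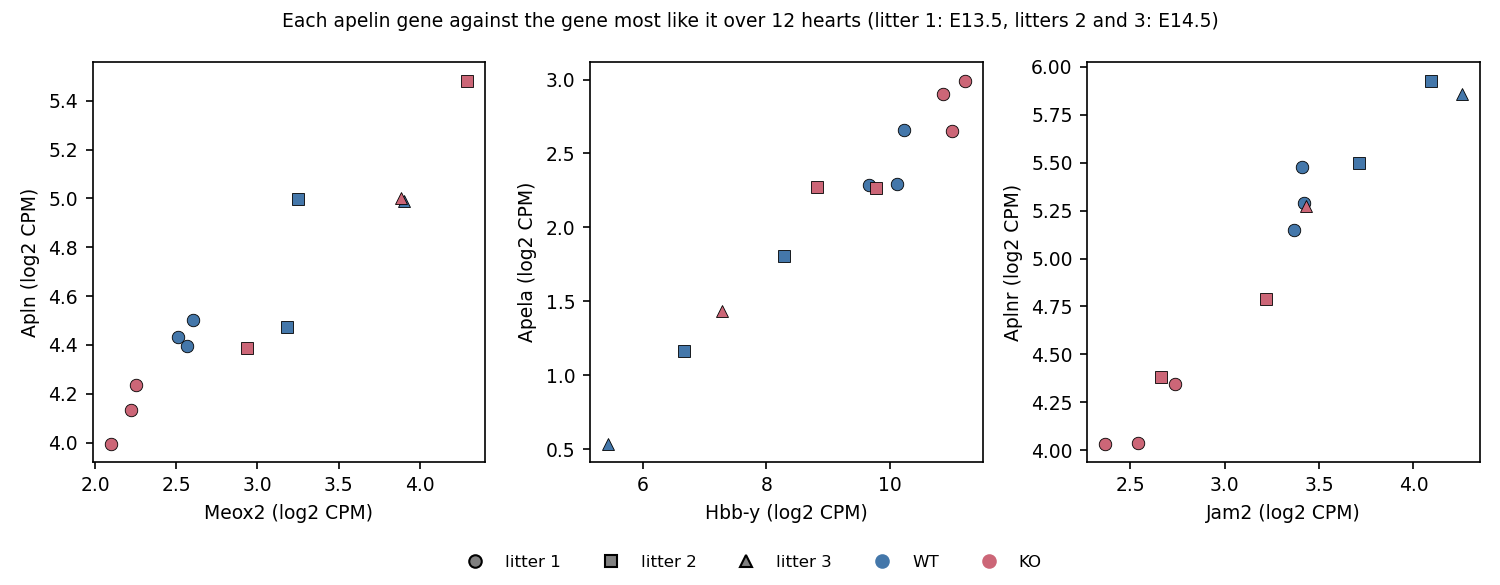
Log2 CPM of each apelin gene (y axes) against that of the gene most like it (x axes) in 12 hearts: Apln with Meox2 (r = 0.94), Apela with Hbb-y (r = 0.98) and Aplnr with Jam2 (r = 0.98). Points are embryos, shapes litters and colours genotypes.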

How the data were processed

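The authors deposited a table of unnormalized counts, 1 row per gene symbol and 1 column per embryo. Per the submitters' processing notes, STAR 2.5.3a, featureCounts, DESeq2 and DESeq were used on GRCm38, with no role or order. For strand and overlap settings the sources used here give nothing. The library kit was NEBNext Ultra, per the labels.

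The tests used edgeR 4.0.16 in R 4.3.3. After filterByExpr (20691 genes) and TMM scaling, all 12 libraries entered 1 robust quasi-likelihood fit with 4 group means (8 residual degrees of freedom, common coefficient of variation 17.1%). Two-sided F-tests gave 6 comparisons, adjusted by Benjamini-Hochberg over all genes, with a threshold of 0.05. The tests set each difference against the spread between embryos within groups, with no term for litter. The E13.5 embryos, all of 1 litter, add no spread between litters to it. Each SE was derived from the log2 fold change and the root of its F. CPM uses the TMM-scaled library sizes, and log2 CPM a prior count of 2. Levels per kilobase use the union of annotated exons.

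Litter pairing comes from the labels. At E14.5, residuals correlated at a mean of 0.00399 across genes between WT and KO hearts of the same litter (5 pairs) and -0.00501 between litters (4 pairs). Litter as a block, DESeq2 1.42.0, RLE factors, no filter, only the groups compared, a Y-linked covariate and left-out libraries were alternatives; the fits without robust estimation or with bias-adjusted deviances were chosen after seeing the data. The averaged comparison was also run on counts simulated with a common spread for all genes and no litter effect. That setting does not check the test for litters or for hearts that stand apart.

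Members, lists and alternatives were chosen with earlier results of these data known. Named are the members, called list genes (up to 3 per list and direction with the smallest p), a fixed panel of endothelial and pathway genes, and the 5 genes most like each member with a mean of at least 1 CPM. Genes of these sets that are not reported here were left unnamed. The stage examples Mme, Pcsk5, Epas1, Agtr1a and Rgs5 were chosen after their values were seen.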

Additional observations from a re-analysis of the deposited data

How the results depend on the processing

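Aplnr in the averaged genotype comparison kept its call without any 1 of the 12 libraries (-1.17 to -0.94, adjusted p from 0.000413 to 0.0236) and in the 9 other alternatives (-1.14 to -0.92), and relative to pan-endothelial genes in all 12 and 5. DESeq2 called more: Aplnr at E13.5 (-1.17) and E14.5 (-0.91), averaged Apela (0.61), and, between stages in KO, Apln (0.90), Apela (-0.81) and Aplnr (0.72). Litter as a block gave Aplnr calls at E13.5 (-1.16) and E14.5 (-0.95) and averaged Apela (0.62), and changed no other call of a member. Aplnr at E13.5 also passed with only the libraries compared (-1.16) and without litter 3 (-1.16), and at E14.5 without litter 3 (-1.13). The stage call of Apela in WT was lost with no filter (-1.19), only the libraries compared (-1.17), the Y-linked covariate (-1.18), without the pair KO replicate 5 (E13.5) and KO replicate 2 (E14.5) (-1.18) and without litter 3 (-0.91). Without that pair Apln at E14.5 turned to -0.12. With no robust estimation Apln passed between stages in KO (0.90). With coronary genes or Pecam1 as reference, relative Apln turned to 0.33 and 0.38 and relative Apela passed at 1.05 and 1.10, as it did without litter 3 (0.61).

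Leaving out 1 library in turn gave ranges of -1.28 to -1.08 for Aplnr at E13.5 (called without E14.5 KO replicate 2 or KO replicate 1) and -1.17 to -0.72 at E14.5 (called without KO replicate 1). Aplnr between stages in KO ranged from 0.45 to 0.90 (called without E14.5 KO replicate 2), its interaction from -0.011 (without KO replicate 1) to 0.44. Apln ranged from -0.12 to 0.42 at E14.5, -0.22 to 0.048 averaged (without E14.5 KO replicate 4), and 0.60 to 1.14 between stages in KO (called without E14.5 KO replicate 4). Apela ranged from -1.55 to -0.91 between stages in WT (-1.05 without E13.5 WT replicate 4), losing its call without any 1 of the 6 E13.5 libraries, E14.5 WT replicate 7 or WT replicate 7.2. Relative Apela ranged from 0.44 to 0.75 (0.48 without E14.5 KO replicate 4, called without E14.5 WT replicate 8 or KO replicate 1).

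Counts of called genes varied with the setting. Leaving out 1 library gave 2 to 69 genes at E13.5 (22 with all), 10 to 107 at E14.5 (46), 125 to 483 averaged (293), 8 to 1081 between stages in WT (836) and 66 to 1076 in KO (774). DESeq2 called 319, 339, 910, 2132 and 1784, and the litter block 60 at E13.5, 92 at E14.5, 299 in WT and 332 in KO, where it contrasts litter 2 with litter 1 and cannot separate stage from litter. Across the other alternatives they ran from 9 to 95 at E13.5, 2 to 92 at E14.5 and down to 63 averaged, 95 in WT and 130 in KO. The cause was not tested. The number of embryos and litters limits the precision, and the effect of depth was not tested.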
